A study of Mus musculus with 4 samples.

Results

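Il2rg, Il21r, Il4ra, Il13ra1, Il15ra and Il7r encode the common gamma chain, the receptor chains for interleukin-21 (IL-21), IL-4, IL-15 and IL-7, and the IL-13 chain that pairs with the IL-4 chain. They are 6 genes, picked by name, of 55487 genes in a count table of myeloid cells sorted from mouse livers, and all 6 passed the filter on low counts that left 13496 genes for testing. The compared groups were LysM-Cre IL10R fl/fl (2 libraries) and LysM-Cre IL10R wt/wt (2 libraries). Both groups carry LysM-Cre, a Cre recombinase driven from the lysozyme 2 locus and hence made in the myeloid lineage; the groups differ in whether the interleukin-10 (IL-10) receptor gene is floxed. The labels do not name the floxed receptor chain, and no label states the age, sex or treatment of the mice. The sort kept cells positive for CD45 and CD11b and negative for CD3 and CD11c.

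The common gamma chain is a signalling subunit that several cytokine receptors share. A ligand-specific chain binds the cytokine, the gamma chain brings the kinase JAK3, the partner chain brings JAK1, and the kinases then activate STAT transcription factors. IL-4 can signal through the IL-4 chain with the gamma chain (the type I receptor), or through the IL-4 chain with the IL-13 chain Il13ra1 (the type II receptor), and both use STAT6. In myeloid cells the type II receptor carries IL-13 signals and is among the routes to alternative activation of macrophages, not the only one. IL-21 signals mainly through STAT3, and IL-7 and IL-15 mainly through STAT5.

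Total counts were 17750343 and 17154042 in fl/fl libraries 1 and 2, and 22694136 and 26441014 in wt/wt libraries 1 and 2. Il10ra, the ligand-binding chain of the IL-10 receptor, held 69.3 and 14.8 CPM in fl/fl libraries 1 and 2, against 1111 and 993 CPM in the wt/wt libraries (CPM are counts scaled to library size, with TMM factors). The fl/fl libraries were therefore the ones with little Il10ra, as labelled. Among the genes of the sort, Ptprc (CD45) and Itgam (CD11b) overlapped between the groups. Itgax, the CD11c gene, was lower in fl/fl, at 24.6 and 47.1 CPM against 158 and 134 CPM in wt/wt (log2 fold change −2.02, adjusted p = 0.0197, edgeR). Lyz2, the gene of the Cre locus, held 26.4 and 80.4 CPM in fl/fl, against 18.4 and 23.3 CPM in wt/wt; it has a near-identical copy, Lyz1, so its counts are uncertain. Xist, the RNA of X inactivation, held 4298 counts in fl/fl library 2 and 0 elsewhere. The Y-linked genes Ddx3y, Uty, Kdm5d and Eif2s3y summed to 1 count there, against 3455 to 6562 counts in the other 3 libraries. The fl/fl pair thus mixes a female and a male library. Markers of granulocytes moved with the genotype: 6 granulocyte precursor genes summed to 1555 and 505 CPM in fl/fl, against 52.3 and 42.1 CPM in wt/wt, and 10 neutrophil genes to 36168 and 16725 against 3075 and 3737 CPM. Macrophage genes (5) summed to 1449.5 and 1712 CPM in fl/fl and to 2673 and 2507 CPM in wt/wt. T cell, B cell and type 2 innate lymphoid cell markers summed to at most 11.2 CPM in any library. No label ties libraries to separate animals. The fl/fl libraries differ in sex and so came from different animals, which is not known for the wt/wt libraries. The p-values therefore measure the spread between these samples only.

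Il21r was the receptor gene that fell in fl/fl cells, 3.95-fold on average, while the other 5 genes did not pass the test. Il21r and Il4ra are neighbours on chromosome 7, on the same strand and 23954 bases apart, and they differed in this comparison. Their upstream sequences are shown for that reason. Each is the 250 bases before the RefSeq start, from the RefSeq table on GRCm38.p6, plus strand, at chr7:125603179-125603428 for Il21r and chr7:125552021-125552270 for Il4ra; capitals mark CG pairs.
Il21r: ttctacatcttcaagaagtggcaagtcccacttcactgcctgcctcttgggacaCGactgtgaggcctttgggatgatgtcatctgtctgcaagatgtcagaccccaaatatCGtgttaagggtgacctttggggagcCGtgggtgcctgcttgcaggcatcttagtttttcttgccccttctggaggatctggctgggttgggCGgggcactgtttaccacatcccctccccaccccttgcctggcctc
Il4ra: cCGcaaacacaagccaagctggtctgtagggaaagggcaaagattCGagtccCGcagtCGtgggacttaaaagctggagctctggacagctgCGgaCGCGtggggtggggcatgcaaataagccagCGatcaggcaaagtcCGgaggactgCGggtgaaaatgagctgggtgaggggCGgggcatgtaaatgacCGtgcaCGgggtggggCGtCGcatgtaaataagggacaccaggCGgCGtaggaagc
The Il21r stretch holds 4 CG pairs and the Il4ra stretch 17. The Il21r stretch ends just before the annotated start of its gene. The Il4ra stretch runs past the annotated start of its gene, at 125552120, and so lies partly inside that gene. Of 32851 promoters in that table, 62.2% hold at least 4 and 23.5% at least 17. Neither stretch holds a STAT site, searched as TTC and GAA with 3 bases between them, or a STAT6 site, with 4 bases between them. Both patterns read the same on either strand, and 7.02% and 5.85% of all promoters hold them. Among the 7 upstream stretches of the 6 genes (Il15ra has 2 starts), only that of Il7r holds a match, TTCAGGGAA, at 142 to 134 bases before its start. RefSeq starts differ from the annotated gene starts given below. The Il7r stretch, at chr15:9529877-9530126, lies wholly inside the annotated span of its gene, as does the later Il15ra stretch. A match or its absence describes these letters only.

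Il21r (ENSMUSG00000030745; GRCm38 chromosome 7, 125603429 to 125633570, plus strand) encodes the chain that binds IL-21, a cytokine made mainly by T cells. It held 60.0 and 30.2 CPM in fl/fl libraries 1 and 2, from 1031 and 530 counts. In wt/wt libraries 1 and 2 it held 178 and 179 CPM, from 3959 and 4853 counts. Both fl/fl libraries lay far below both wt/wt libraries, and the wt/wt pair was nearly equal while the fl/fl pair was apart. Il21r averaged 45.1 ± 21.1 CPM in fl/fl and 178 ± 0.669 CPM in wt/wt (SD, n = 2 each), which is 3.95-fold lower in fl/fl. The log2 fold change was −1.98 ± 0.31 (SE, with a 95% interval of −2.72 to −1.24; adjusted p = 0.0215, edgeR quasi-likelihood test over all 13496 genes). In sorted but mixed cells, fewer cells of a type and less RNA per cell cannot be told apart. The same libraries differed in Itgax and in the granulocyte and macrophage marker sums given above, and the part of such cells in the Il21r value was not tested. The fall was −2.60 without fl/fl library 1 and −1.56 without fl/fl library 2, each past the threshold. Without wt/wt library 1 or 2 it stayed at −2.03 and −1.97, but edgeR then called 0 genes in the table (adjusted p = 0.17 and 0.116 for Il21r), although 1576 and 2333 genes had an unadjusted p under 0.05. DESeq2 on those same 3 libraries, added after the data were seen, gave adjusted p = 0.000423 and 0.000299 for Il21r and called 490 and 767 genes.

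Across the 13496 tested genes, 5.85% were called, 2.69% as higher and 3.16% as lower in fl/fl. Of the 6 receptor genes, 1 was called, Il21r, and 5 did not pass. Their median log2 fold change was −0.29, against 0.02 over all tested genes. In 3 of the 6, Il21r, Il13ra1 and Il7r, the libraries of the groups did not overlap; that was so for 54.4% of all tested genes, a share close to that of the receptor genes.

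**Figure D1:**
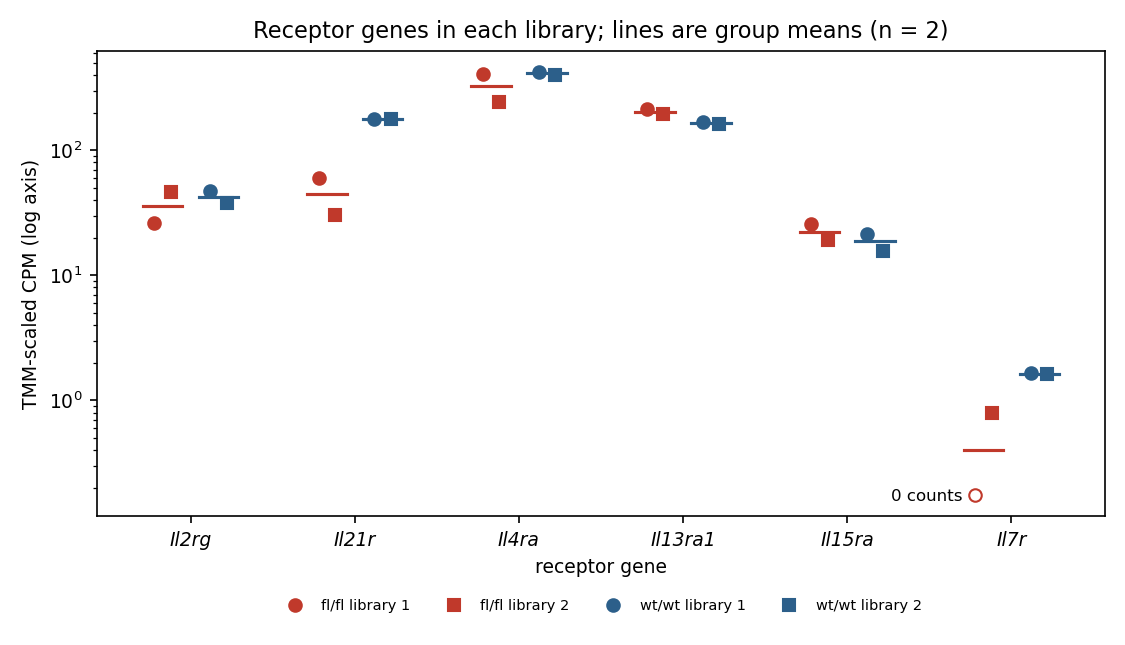
TMM-scaled CPM (log axis) of the 6 receptor genes in each library, fl/fl in red and wt/wt in blue, circles for library 1 and squares for library 2, with lines at group means (n = 2). Il21r at 60.0 and 30.2 CPM in fl/fl lies below 178 and 179 CPM in wt/wt, Il7r is near 0 throughout, and the open circle is a library with 0 counts drawn at the level that 3 counts would give.

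Il2rg (ENSMUSG00000031304; GRCm38 chromosome X, 101264378 to 101268255, minus strand) encodes the common gamma chain itself. It held 26 and 46.1 CPM in fl/fl libraries 1 and 2, against 46.9 and 37.7 CPM in wt/wt. The groups overlapped, and the fl/fl pair was further apart than the wt/wt pair. Il2rg averaged 36.0 ± 14.2 CPM in fl/fl and 42.3 ± 6.54 CPM in wt/wt (SD, n = 2 each), with a log2 fold change of −0.23 (95% interval −0.91 to 0.45; adjusted p = 0.706, edgeR). The sign depended on 1 library: it was 0.09 without fl/fl library 1, the low one, and −0.69 without fl/fl library 2. The higher fl/fl library is the one with Xist counts; whether sex has a part in the level of this X-linked gene was not tested. Of its exonic length, 30.5% is shared with the same-strand gene Gm20489, which held 0 and 3 counts in fl/fl and 0 in each wt/wt library, so that reads in the shared part may have been left out of both.

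Il4ra (ENSMUSG00000030748; GRCm38 chromosome 7, 125552120 to 125579474, plus strand) encodes the chain that binds IL-4 and belongs to both receptor types. It had the highest counts of the 6 genes, with 406 and 243 CPM in fl/fl libraries 1 and 2, against 423 and 399 CPM in wt/wt. Library fl/fl 1 lay within the wt/wt range, and only fl/fl 2 was low. The group averages were 324 ± 115 CPM in fl/fl and 411 ± 16.4 CPM in wt/wt (SD, n = 2 each). The log2 fold change of Il4ra was −0.34 (95% interval −0.94 to 0.26; adjusted p = 0.491, edgeR). Without fl/fl library 1 it was −0.80, just past the threshold (adjusted p = 0.0493), and without fl/fl library 2 it was −0.01, so the difference rested on fl/fl library 2. An opposite-strand gene, Gm44876, overlaps 9.51% of the exonic length of Il4ra and held at most 3 counts in any library.

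Il13ra1 (ENSMUSG00000017057; GRCm38 chromosome X, 36112110 to 36171259, plus strand) encodes the IL-13 chain of the type II receptor. It had the narrowest interval of the 6 genes, with 214 and 194 CPM in fl/fl against 167 and 161 CPM in wt/wt. Both fl/fl libraries lay above both wt/wt libraries, by a small margin. The means were 204 ± 14.2 CPM in fl/fl and 164 ± 4.11 CPM in wt/wt (SD, n = 2 each), a log2 fold change of 0.31 (95% interval −0.06 to 0.68; adjusted p = 0.296, edgeR). With single libraries left out it ranged from 0.20 to 0.39 and never passed. The gene is X-linked, and the female library fl/fl 2, at 194 CPM, lay below the male library fl/fl 1, at 214 CPM. Whether sex has a part in the Il13ra1 level was not tested.

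Il15ra (ENSMUSG00000023206; GRCm38 chromosome 2, 11705290 to 11734317, plus strand) encodes the chain that binds IL-15 and presents it to neighbouring cells. Its level was low and overlapped between the groups, at 25.6 and 19.2 CPM in fl/fl and 21.5 and 15.8 CPM in wt/wt. The log2 fold change of Il15ra was 0.27 (95% interval −0.33 to 0.87; adjusted p = 0.6, edgeR), from 0.01 to 0.47 with single libraries left out.

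Il7r (ENSMUSG00000003882; GRCm38 chromosome 15, 9505788 to 9530176, minus strand) encodes the chain that binds IL-7 and is best known from lymphocytes. It was close to absent, with 0 and 14 counts in fl/fl libraries 1 and 2, against 37 and 44 counts in wt/wt. In CPM this was 0 and 0.799 in fl/fl, against 1.66 and 1.62 in the wt/wt libraries, both fl/fl libraries lying lower. The upper limit that 0 counts allow, 3 counts, is 0.175 CPM in fl/fl library 1; such limits cover counting error only. The log2 fold change of −2.02 had a 95% interval of −4.87 to 0.84 (adjusted p = 0.383, edgeR). Without fl/fl library 2 the remaining fl/fl library has 0 counts, so the fitted value of −8.19 (adjusted p = 0.0261) rests on the prior count; against the limit of 3 counts, Il7r was at least 9.37-fold lower there. It was −1.07 without fl/fl library 1 (adjusted p = 0.534). The T cell markers, genes of a type that carries the IL-7 receptor, summed to 2.62 and 2.97 CPM in fl/fl and 1.53 and 1.22 CPM in wt/wt. Most of these sums is Lck and Cd3d; Trac was lower in fl/fl, at 0.0582 and 0 CPM against 0.18 and 0.184 CPM in wt/wt, and Cd3e was at 0 in both fl/fl libraries and at 0 and 0.0737 CPM in wt/wt. The part of T cells in the Il7r value was not tested.

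**Figure D2:**
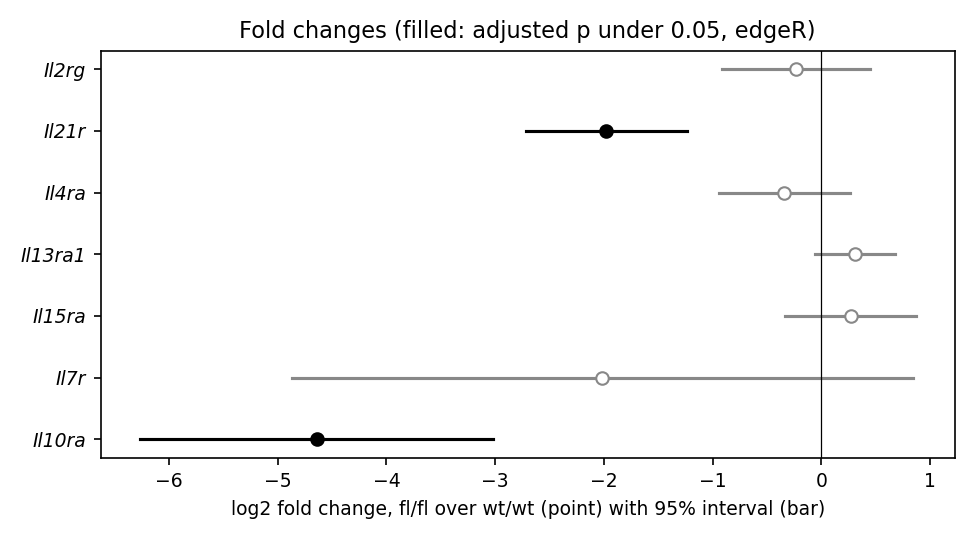
Log2 fold changes of the 6 receptor genes and of Il10ra, fl/fl over wt/wt, as points with 95% intervals; filled points have an adjusted p under 0.05 by edgeR. Il21r at −1.98 and Il10ra at −4.64 lie left of 0 with their whole intervals, and the intervals of the other 5 genes include 0.

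Levels per length of exon put the genes in a different order in the genotypes. In fl/fl libraries 1 and 2, Il13ra1 at 57.6 and 52.2 CPM per kb of exon and Il4ra at 67.7 and 40.4 overlapped at the top. Il21r at 18.1 and 9.10 CPM per kb then overlapped with Il2rg at 10.9 and 19.3, above Il15ra at 5.76 and 4.33 and Il7r at 0 and 0.171. In wt/wt libraries 1 and 2, Il4ra stood at 70.4 and 66.5 CPM per kb, Il21r at 53.5 and 53.8, Il13ra1 at 45.1 and 43.5, and Il2rg at 19.7 and 15.8. Il15ra followed at 4.83 and 3.55 and Il7r at 0.356 and 0.348 CPM per kb, and no neighbours in this wt/wt order overlapped. The gene of the IL-21 chain thus stood beside that of the gamma chain in fl/fl, and between those of the 2 type II receptor chains in wt/wt. Counting only the 1.66 kb of Il2rg exons that no other gene shares, its level was 15.7 and 27.8 CPM per kb in fl/fl, against 28.3 and 22.7 in the wt/wt libraries, still below Il4ra and Il13ra1 in each library.

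Ratios of counts within a library do not depend on scaling between libraries. For every 100 counts of Il4ra there were 14.8 and 12.5 counts of Il21r in fl/fl libraries 1 and 2, against 42.1 and 44.8 in wt/wt. This ratio was close within each genotype and separated them, by −1.68 on the log2 scale; with 2 libraries against 2 a two-sided exact permutation test cannot give a p below 0.333, so the ratios are given without a p. The Il21r fall was therefore also seen relative to its neighbour Il4ra, in each fl/fl library. The type II pair shifted the other way and less evenly, with 52.7 and 79.8 counts of Il13ra1 per 100 of Il4ra in fl/fl, against 39.6 and 40.4 in the wt/wt libraries. The ratio of Il2rg to Il4ra overlapped, at 6.41 and 19.0 per 100 in fl/fl, against 11.1 and 9.44 in the wt/wt libraries.

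**Figure D3:**
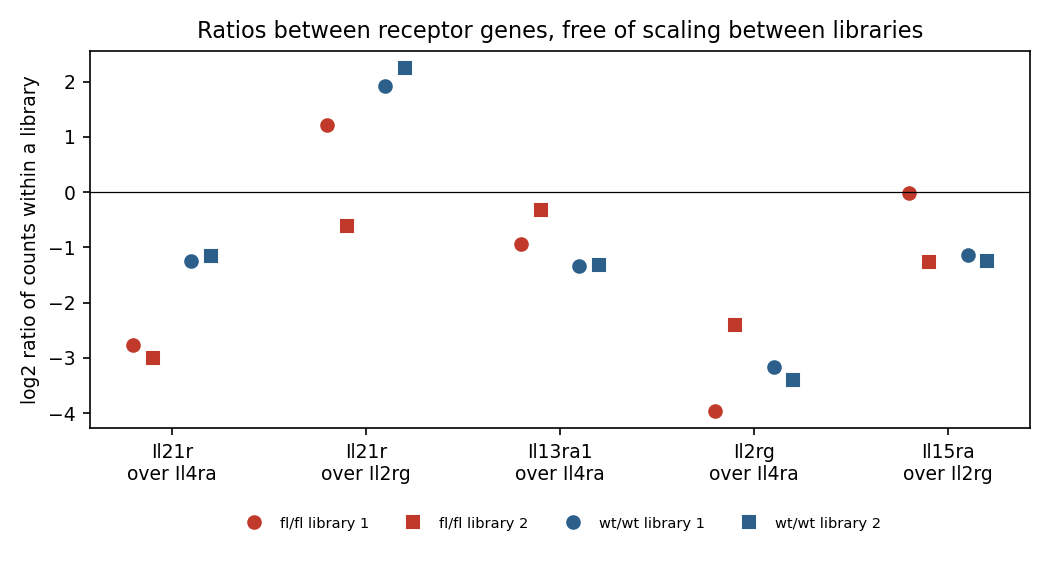
Log2 ratios of counts between pairs of receptor genes within each library, fl/fl in red and wt/wt in blue, circles for library 1 and squares for library 2. Il21r over Il4ra lies at −2.76 and −3.0 in fl/fl and at −1.25 and −1.16 in wt/wt, whereas Il2rg over Il4ra and Il15ra over Il2rg overlap between the genotypes.

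**Figure D4:**
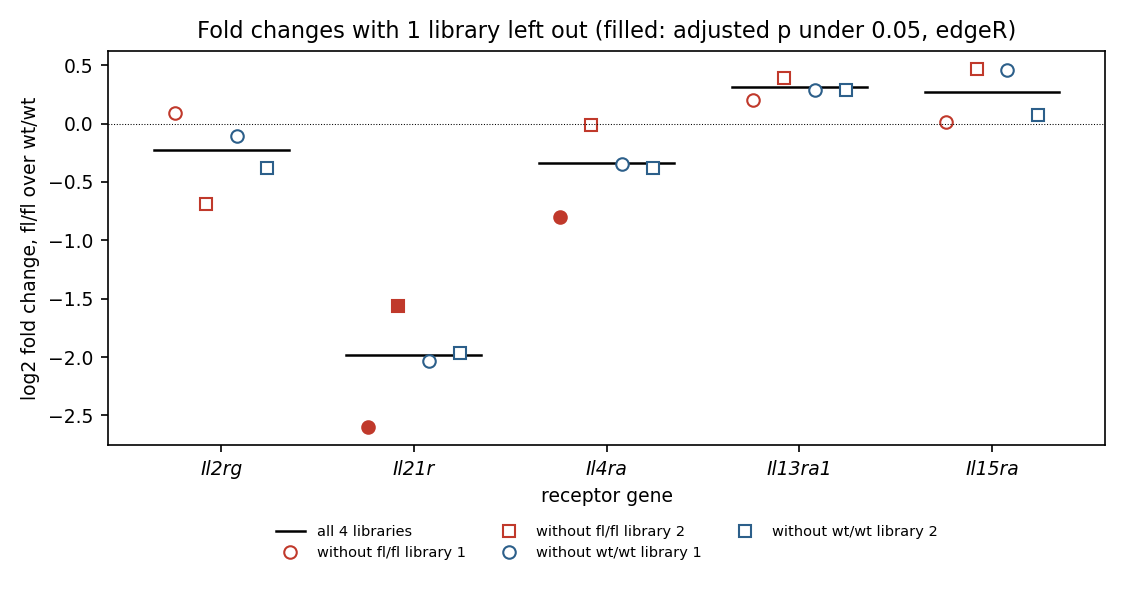
Log2 fold changes, fl/fl over wt/wt, of 5 receptor genes with all 4 libraries (black line) and with each library left out; filled symbols have an adjusted p under 0.05 by edgeR, and Il7r, at −8.19 to −1.07, is not drawn. Il21r stays between −2.60 and −1.56, Il4ra spans −0.80 to −0.01, and Il2rg spans −0.69 to 0.09, around 0.

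The 3 genes whose profile over the 4 libraries was most like that of Il21r, of 6746 genes with at least median expression, were Slc37a2, a sugar-phosphate transporter gene, Cttnbp2nl and Mif, the gene of a macrophage cytokine. Likeness was the root mean square difference of centred log2 CPM, at 0.065, 0.107 and 0.12. Slc37a2 held 17.6 and 9.53 CPM in fl/fl against 51.3 and 52.3 CPM in wt/wt. Mif held 63.9 and 35 CPM in fl/fl, against 219 and 175 CPM in wt/wt; it has processed copies elsewhere in the genome, so its counts are less certain. All 3 were called lower, which follows from their likeness to a called gene, and with 4 libraries likeness is a description only.

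Apart from Il15, the ligand genes of these receptors were nearly absent from the sorted cells. Of 8 ligand genes, 2 passed the filter on low counts, and neither passed the test. Il15, whose product is presented by the IL-15 chain, was the expressed one, at 16 and 27.7 CPM in fl/fl and 27.9 and 20.7 CPM in wt/wt (log2 fold change −0.15, adjusted p = 0.829, edgeR). Il4 held 9 and 21 counts in fl/fl, against 2 and 15 in the wt/wt libraries. Il2, Il9 and Il21 had 0 counts in all 4 libraries, which allows at most 0.111 to 0.175 CPM by library, and Il7, Il13 and Tslp had at most 13 counts in a library.

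Of 5 other receptor chains, Crlf2 and Il2rb passed the filter. Crlf2, which pairs with the IL-7 chain to bind TSLP, was as abundant as Il13ra1 in CPM, at 180 and 161 CPM in fl/fl and 168 and 189 CPM in wt/wt, although its partner Il7r was near 0. Its log2 fold change of −0.07 had a 95% interval of −0.45 to 0.32. Il2rb, the chain that IL-2 and IL-15 receptors share, was low but higher in both fl/fl libraries, at 2.39 and 4.51 CPM against 0.943 and 0.553 CPM in wt/wt. The Il2rb log2 fold change was 2.21 (adjusted p = 0.0847, edgeR), from 1.68 to 2.58 with single libraries left out; 3 of 12 alternative settings called it, DESeq2 among them (adjusted p = 0.0256). NK cells carry this chain, and 3 of 4 tested NK cell markers were called higher in fl/fl, against 2.69% of all tested genes: Gzma at 8.44 and 12.1 CPM against 1.21 and 1.18 in wt/wt, and Nkg7 and Prf1 at log2 fold changes of 3.67 and 3.47. All 7 NK markers summed to 32.6 and 27.6 CPM in fl/fl and to 4.22 and 3.94 CPM in wt/wt. Klre1, too low to be tested, was also higher in both fl/fl libraries, with 2 and 26 counts against 0 and 3 in wt/wt. The other NK genes did not follow: the NK receptor gene Ncr1 held 0.0582 and 0.228 CPM in fl/fl against 0.809 and 0.295 CPM in wt/wt, and Eomes and Klrb1c overlapped between the groups. The part of such cells in the Il2rb value was not tested.

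None of the 4 kinase genes or 5 STAT genes was called. Jak1, the kinase that the partner chain of the gamma chain brings, held 187 and 195 CPM in fl/fl, against 205 and 184 CPM in wt/wt (log2 fold change −0.03, 95% interval −0.40 to 0.34). Jak3, the kinase on the gamma chain, held 165 and 130 CPM in fl/fl, against 133 and 125 CPM in wt/wt (log2 fold change 0.19, interval −0.23 to 0.61). Stat6, the factor of IL-4 and IL-13, held 280 and 279 CPM in fl/fl, against 326 and 294 CPM in wt/wt (log2 fold change −0.15, interval −0.52 to 0.22). Jak2 was the kinase with the smallest p, at 101 and 90.1 CPM in fl/fl and 190 and 120 CPM in wt/wt (log2 fold change −0.70, adjusted p = 0.144, edgeR). It ranged from −0.99 to −0.37 with single libraries left out and passed in none of those fits; 1 of 13 alternative settings, that without a filter, called it, as did the added DESeq2 fit without wt/wt library 2 (adjusted p = 0.0463).

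Among adaptors and inhibitors, Irs2 fell and the others did not pass. Irs2, the docking protein that couples the IL-4 chain to PI3-kinase, held 63.6 and 73.4 CPM in fl/fl against 292 and 135 CPM in wt/wt. Both fl/fl libraries were low and alike, while the wt/wt libraries were far apart. Irs2 changed by −1.64 ± 0.35 on the log2 scale (SE), with an adjusted p of 0.0439 by edgeR. It passed without fl/fl library 2 (−1.74), and not without fl/fl library 1 (−1.57, adjusted p = 0.0517), wt/wt library 1 (−1.03, 0.191) or wt/wt library 2 (−2.09, 0.052). The feedback inhibitor genes Cish (4.31 and 4.17 CPM in fl/fl, against 12 and 9.36 in the wt/wt libraries), Socs2 (0.641 and 0 against 2.96 and 5.19) and Socs1 (28.2 and 18.9 against 58.4 and 31.5) had lower values in both fl/fl libraries without passing. Their adjusted p were 0.0532, 0.0996 and 0.162 by edgeR, and 8, 4 and 2 of the alternative settings called them. The rest of the inhibitor list did not follow. Socs3 overlapped between the groups, at 1246 and 1136 CPM in fl/fl against 1423 and 1042 CPM in wt/wt. Ptpn6 was higher in both fl/fl libraries without passing, at 555 and 574 CPM against 436 and 459 CPM in wt/wt. In all, 20 of the 30 pathway genes were tested, 0 were called higher, 1 was called lower and 19 did not pass, at a median log2 fold change of −0.04. That is 1 of 20, near the 5.85% of all tested genes. Without the filter 6 of these genes were called, where 2088 of all 22696 genes were called. With DESeq2 4 were called, where 1618 of all 13496 genes were.

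Genes that IL-4 and IL-13 induce in macrophages were mixed. Of 20 such genes 19 were tested, of which 2 fell, 0 rose and 17 did not pass, with a median log2 fold change of −0.34. Over all tested genes 5.85% were called, 3.16% as lower, and the median was 0.02. Without the filter 8 were called, beside 2088 of all 22696 genes, and with DESeq2 5, beside 1618 of all 13496 genes. Egr2, a transcription factor of alternative activation, held 46.2 and 55.5 CPM in fl/fl, against 130 and 102 CPM in wt/wt (log2 fold change −1.19 ± 0.19, SE; adjusted p = 0.0223, edgeR). It stayed between −1.35 and −1.05 with single libraries left out, but did not pass without wt/wt library 1 or 2 (adjusted p = 0.202 and 0.0883). Ch25h, which makes 25-hydroxycholesterol, had 1 count in each fl/fl library against 42 and 37 counts in wt/wt, or 27.7-fold lower in fl/fl with a 95% counting interval of 7.43 to 233 (adjusted p = 0.0361, edgeR). It did not pass with any library left out (adjusted p = 0.0584 to 0.326).

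The other target genes with an unadjusted p under 0.05 went in both directions without passing. Arg1, the arginase of alternatively activated macrophages, held 65.6 and 5.02 CPM in fl/fl against 573 and 612 CPM in wt/wt, both fl/fl libraries being low and far apart from each other (log2 fold change −4.07, adjusted p = 0.0654, edgeR). It was −6.92 without fl/fl library 1 and −3.17 without fl/fl library 2, and 7 of 13 alternative settings, both of these among them, called it. Tgm2, a transglutaminase, held 294 and 53.6 CPM in fl/fl, against 1876 and 1106 CPM in wt/wt (−3.10, adjusted p = 0.0611). Tgm2 was called in 8 of 13 alternative settings, among them those without fl/fl library 1 (−4.83, adjusted p = 0.000112) and without fl/fl library 2 (−2.33, adjusted p = 0.00177). The mannose receptor gene Mrc1 stood at −1.36 on that scale (adjusted p = 0.0879) and passed without fl/fl library 2 (−1.76, adjusted p = 0.0221). Cdh1, the E-cadherin gene, was at −1.02 (adjusted p = 0.142) and passed without fl/fl library 2 (−1.43, adjusted p = 0.0313). Chil3, which granulocyte precursors and monocytes express as well, held 8404 and 2069 CPM in fl/fl, against 1369.7 and 714 CPM in wt/wt (2.33, adjusted p = 0.0865). The size of the Chil3 difference rested on fl/fl library 1: it was 0.95 without that library (adjusted p = 0.116), and 3.02 without fl/fl library 2 (adjusted p = 0.000373). Granulocyte precursor markers, at 1555 and 505 CPM in sum in fl/fl and 52.3 and 42.1 CPM in wt/wt, moved with Chil3, and their part in its value was not tested.

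**Figure D5:**
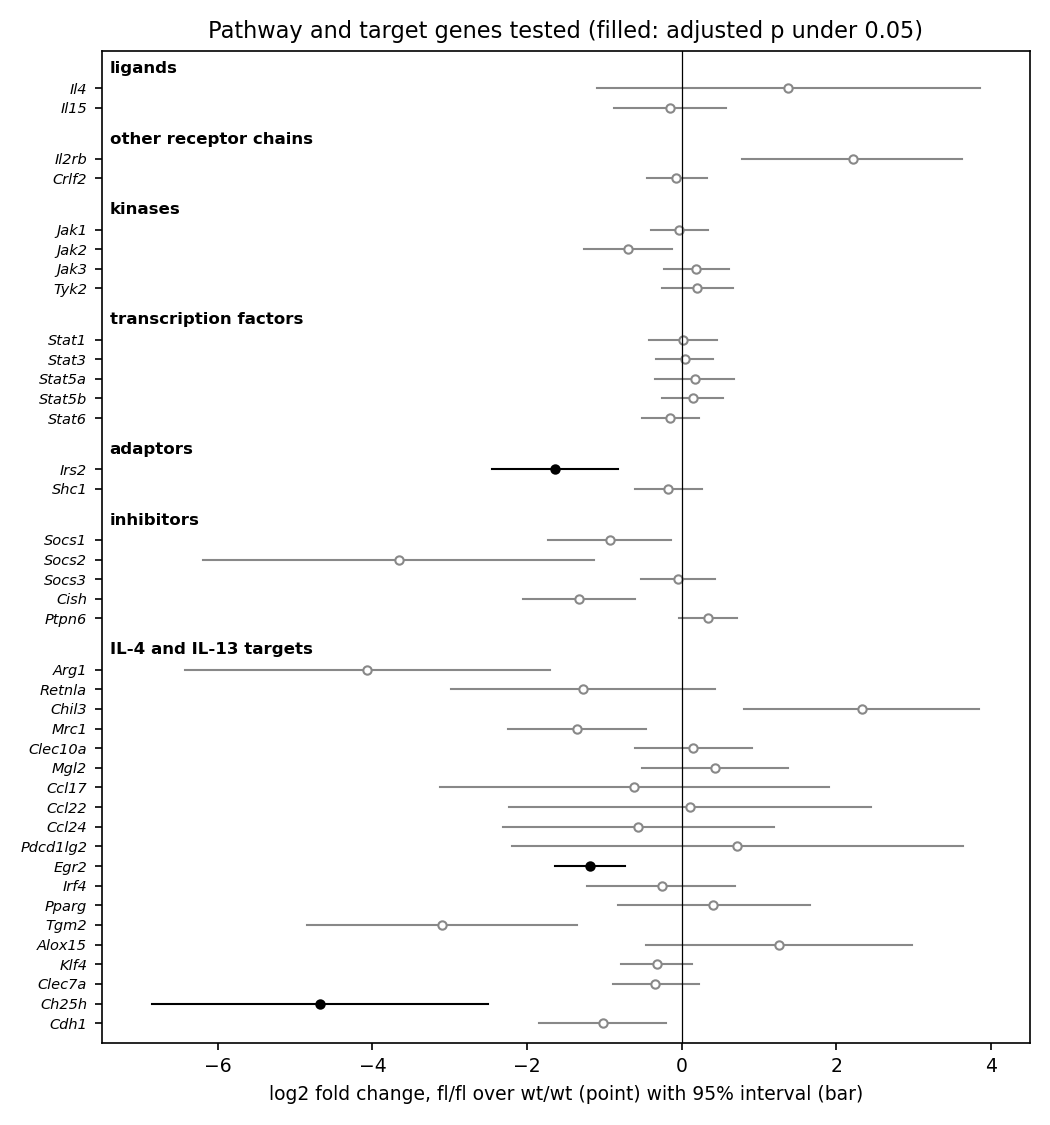
Log2 fold changes, fl/fl over wt/wt, with 95% intervals for the 20 tested pathway genes by role and the 19 tested IL-4 and IL-13 target genes; filled points have an adjusted p under 0.05 by edgeR. Irs2, Egr2 and Ch25h are filled, all left of 0, and the STAT genes lie between −0.15 and 0.17.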

How the data were processed

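Poly(A) RNA libraries of sorted liver myeloid cells were used. The authors deposited 1 table of raw counts per Ensembl gene, whole numbers in all 4 libraries. The submitters' processing notes name STAR 2.5.0, Trimmomatic 0.33 and FastQC 0.11.5, and the GRCm38 build. How reads were counted, with which annotation and with or without strand, is not given in the sources used here. Gene symbols, positions and exon lengths came from GENCODE M21 (GRCm38), which held 55227 of the identifiers. The comparison used edgeR 4.0.16 (R 4.3.3): filterByExpr by group with a minimum count of 10, TMM scaling, quasi-likelihood F test, no covariates, two-sided, Benjamini-Hochberg adjustment over all 13496 tested genes, threshold 0.05. Fold changes used a prior count of 0.125, and SEs are fold changes on the log2 scale, without sign, divided by the root of F. The biological coefficient of variation was 25.5%. Profiles used a pseudocount of 0.5 CPM. The steps were tested on simulated data. Alternatives were other scalings, filters and prior counts, DESeq2 1.42.0, limma-voom (limma 3.58.1), a replicate block and leaving out each library.

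The receptor genes, the pathway, target and marker lists and the tests were chosen with earlier results of these data known. Genes named were the receptor genes, Il10ra, list genes that were called or whose protein binds a receptor chain or its ligand, up to 4 further genes of each list with the smallest p, annotated neighbours, and the 3 profiles most like each called receptor gene. Socs1, Socs3, Ptpn6 and the single marker genes were named after their values were seen.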

Additional observations from a re-analysis of the deposited data

How the results depend on the processing

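Il21r kept its direction in all 13 alternatives and its call in 11 of them, and Il13ra1 and Il15ra kept their direction and did not pass in any. Numbers with single libraries left out span these ranges: 0 to 1477 genes called in all, 0 to 2 of the receptor genes, 0 to 3 of the pathway list and 0 to 8 of the target list. The log2 fold changes then span −2.60 to −1.56 for Il21r (calls lost without wt/wt library 1 or 2), −0.80 to −0.01 for Il4ra (passed without fl/fl library 1), −8.19 to −1.07 for Il7r (passed without fl/fl library 2) and −0.69 to 0.09 for Il2rg (sign changed without fl/fl library 1). In such fits the group with 1 library is assumed to vary like the other. The count of all called genes, 790 in the main comparison, was 2088 without the filter, 1618 with DESeq2 and 1215 with the replicate block; DESeq2 without fl/fl library 2 called 1390 and without wt/wt library 1 called 490. The pathway list had 2 called genes with library size only, upper quartile scaling or a mean CPM of at least 5, 6 without the filter, 4 with DESeq2 and 3 with the replicate block. The target list had 4 with library size only, 8 without the filter, 1 at a mean CPM of at least 5, where Il7r and Ch25h were not tested, 5 with DESeq2 and 6 with the replicate block. Over all genes, library size only called 1007, upper quartile scaling 872, and the filter at a mean CPM of at least 5 called 742 of 9317. Without the filter, the 2088 called were of 22696 genes. The cause of these moves was not tested. Replicate numbers do not pair the libraries by any label, and same-numbered libraries deviated together at r = 0.0216 over 13496 genes; the replicate block changed no call of a receptor gene. Scaling moved the median of all genes between −0.01 and 0.02. Depth limits Il7r, with 14 counts in fl/fl and 81 in wt/wt.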

Other observations

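The protein-coding genes next to the receptor genes showed no called change, apart from Il21r as the neighbour of Il4ra. On the far side of Il21r, 7383 bases away, Gtf3c1, a subunit gene of a transcription factor for RNA polymerase III, held 46.0 and 49.1 CPM in fl/fl, against 52.9 and 53.5 CPM in wt/wt (log2 fold change −0.16, adjusted p = 0.62, edgeR). On the far side of Il4ra, Nsmce1, a subunit gene of the SMC5/6 complex, held 45.6 and 34.1 CPM in fl/fl, against 26.6 and 22.0 CPM in wt/wt (0.71, adjusted p = 0.111, edgeR). Il21r thus had lower values in fl/fl between neighbours with log2 fold changes of −0.34 and −0.16.

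Beside Il13ra1 on the X chromosome, Dock11 had a like log2 fold change, with 91.8 and 81.4 CPM in fl/fl and 72.4 and 66.2 CPM in wt/wt (0.32, adjusted p = 0.297, edgeR). Med12, next to Il2rg, had 46.1 and 59.8 CPM in fl/fl and 99.0 and 57.0 CPM in wt/wt (−0.56, adjusted p = 0.307). Fbh1, beside Il15ra, was at 0.07 (adjusted p = 0.852), and Spef2, beside Il7r, at 2.00 (adjusted p = 0.254). Gm614, on the other side of Il2rg, was at 0.55 (adjusted p = 0.747). Il2ra, Zcchc12 and Capsl were too low to be tested.

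Markers of further cell types had these sums: basophil and mast cell genes stood at 52.6 and 45.9 CPM in fl/fl and 18.5 and 30.7 CPM in wt/wt, eosinophil genes at 5.01 and 16.4 CPM in fl/fl, against 5.21 and 5.64 CPM in wt/wt, and dendritic cell genes at 31.9 and 43.2 CPM in fl/fl, against 43.8 and 56.5 CPM in wt/wt, with Siglech at 0 in all libraries. Of the eosinophil genes, Prg2 was called higher, with 17 and 47 counts in fl/fl against 0 in each wt/wt library (adjusted p = 0.0381, edgeR). Siglecf, Epx and Ccr3 overlapped between the groups. Monocyte genes summed to 13892 and 6599 CPM in fl/fl and 9288 and 7762 CPM in wt/wt. Without Chil3, which granulocyte precursors express as well, the monocyte sums were 5488 and 4531 CPM in fl/fl and 7918 and 7048 CPM in wt/wt. Chil3 was left out of these sums after the data were seen. The lower fl/fl sums rested on Fn1, at 1777 and 1266 CPM in fl/fl against 4708 and 3806 CPM in wt/wt (−1.48, adjusted p = 0.0212, edgeR). Ccr2 was also lower in both fl/fl libraries, Ly6c2 and Vcan were higher in both, and F13a1 overlapped, none of them called. Kupffer cell genes summed to 44.4 and 16.6 CPM in fl/fl, against 231 and 232 CPM in wt/wt. C1qa made up most of the Kupffer cell sum, at 41.1 and 12.3 CPM in fl/fl against 231 and 230.1 CPM in wt/wt, while Clec4f, Vsig4, Timd4 and Marco held at most 1.2 CPM in any library, and Vsig4 and Marco were higher in both fl/fl libraries. Hepatocyte genes summed to 13.5 and 74.0 CPM in fl/fl, against 51.2 and 33.0 CPM in wt/wt, and endothelial genes to 15.7 and 15.4 CPM in fl/fl, against 17.8 and 14.4 CPM in wt/wt.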
